A study of Mus musculus with 24 samples.

Results

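The UDP-glucuronosyltransferase 2 and 3 genes of mouse liver are 10 genes, Ugt2a3, Ugt2b1, Ugt2b5, Ugt2b34, Ugt2b35, Ugt2b36, Ugt2b37, Ugt2b38, Ugt3a1 and Ugt3a2, chosen by gene name from the 25746 genes listed in the count tables. All 10 passed the filter on low counts. Their mRNA was counted in the livers of 24 C57BL/6N mice aged 12 weeks, with 6 male wildtype mice (mWT), 6 male major urinary protein (Mup) knockout mice (mKO), 6 female wildtype mice (fWT) and 6 female knockout mice (fKO). In KO mice the whole Mup gene cluster on chromosome 4 had been deleted with CRISPR/Cas9. The line goes back to a single male founder, so the KO groups stand for 1 deletion event, and homozygous mice came from matings of heterozygous parents. Mup genes encode secreted lipocalins made mainly in the liver, and the comparisons ask what their loss does to liver gene expression in each sex.

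UDP-glucuronosyltransferases (UGT) sit in the membrane of the endoplasmic reticulum and join a sugar, for most members glucuronic acid from UDP-glucuronate, to small lipophilic molecules. The conjugates are water soluble and leave the cell through export pumps into bile or blood. Enzymes of the UGT2 family act on steroid hormones, bile acids, fatty acids and many drugs, while the human UGT3 enzymes are known to use other sugars, UGT3A1 taking N-acetylglucosamine and UGT3A2 glucose or xylose. Liver is the main site of this chemistry, and many mouse liver enzymes of steroid and drug metabolism are known to differ between the sexes.

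The 8 Ugt2 genes lie within 534437 bases of chromosome 5 (GRCm38, chr5:86889767-87424203), and all but Ugt2b35 are on the minus strand. The 2 Ugt3 genes lie side by side on the plus strand of chromosome 15 (chr15:9276888-9370955). All 10 are protein coding, and no other annotated gene overlaps any of them. Several are close copies. The coding sequences of Ugt2b5 and Ugt2b38 were 97% identical, those of Ugt2b5 and Ugt2b37 94.7%, those of Ugt2b37 and Ugt2b38 94.1% and those of Ugt3a1 and Ugt3a2 93.2%. In contrast, Ugt2a3 and Ugt2b1 were 67.8% identical, and Ugt2b5 and Ugt3a1 53.5%. Reads were 100 bases long. Of all stretches of 100 bases in the transcripts of Ugt2b5, 24.7% also occur in Ugt2b38, and 24.2% of those of Ugt2b38 occur in another gene. For Ugt2b37 the share was 1.06%, for Ugt2a3 0.595%, for Ugt2b34 0.278%, and for the other 5 genes 0. How reads from shared stretches were assigned is not given in the sources used here, so the counts of Ugt2b5 and Ugt2b38 are uncertain to that extent.

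Ugt2b37 and Ugt2b38 had opposite sex differences, and their promoters are shown because they are nearly the same. The lines below give the 250 bases before the RefSeq start of each gene (GRCm38.p6, each 5′ to 3′ on the strand of the gene), taken from RefSeq. In Ugt2b37 (chr5:87254789-87255038, minus strand) capitals mark bases that differ from Ugt2b38. In Ugt2b38 (chr5:87424204-87424453, minus strand) they mark bases that differ from Ugt2b37, and in Ugt2b5 (chr5:87140341-87140590, minus strand) bases that differ from Ugt2b38.
Ugt2b37: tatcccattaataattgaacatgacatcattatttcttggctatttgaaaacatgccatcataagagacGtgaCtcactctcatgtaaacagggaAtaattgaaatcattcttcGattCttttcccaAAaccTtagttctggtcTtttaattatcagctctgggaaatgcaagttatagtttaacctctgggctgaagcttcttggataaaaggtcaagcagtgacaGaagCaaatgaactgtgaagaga
Ugt2b38: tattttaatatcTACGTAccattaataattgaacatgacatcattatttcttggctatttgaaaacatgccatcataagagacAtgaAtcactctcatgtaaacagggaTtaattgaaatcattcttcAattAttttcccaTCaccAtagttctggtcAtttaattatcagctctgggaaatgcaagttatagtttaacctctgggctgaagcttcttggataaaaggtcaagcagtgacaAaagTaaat
Ugt2b5: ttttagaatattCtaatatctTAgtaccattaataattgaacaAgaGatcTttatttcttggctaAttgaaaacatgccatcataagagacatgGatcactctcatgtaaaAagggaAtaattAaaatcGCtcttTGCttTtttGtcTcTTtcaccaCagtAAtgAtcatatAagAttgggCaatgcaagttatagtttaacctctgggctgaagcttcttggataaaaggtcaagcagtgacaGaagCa
Over the 242 columns that overlap, Ugt2b37 and Ugt2b38 were 93% identical, with 11 mismatches and 6 columns of gap. The windows are shifted against each other because the annotated starts differ. Between Ugt2b5 and Ugt2b38 the identity was 85.1%, with 28 mismatches and 9 columns of gap.

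Promoter sequences of 9 of the 10 genes, all but Ugt3a2, were searched on both strands for 7 motifs of factors known in liver or in the control of detoxifying enzymes. The full motif of HNF1, a hepatocyte factor (GTTAAT and TTAAC with any 2 bases between them), was found in Ugt3a1 on the strand opposite to the gene, so that the capitals below show its reverse complement. This window (chr15:9279579-9279828, plus strand) is shown because Ugt3a1 had the smallest p-value of the 10 genes for the KO in males. Its RefSeq start lies 2941 bases inside the gene as annotated in GENCODE, whereas for the other 8 genes the starts of both annotations differ by at most 27 bases.
Ugt3a1: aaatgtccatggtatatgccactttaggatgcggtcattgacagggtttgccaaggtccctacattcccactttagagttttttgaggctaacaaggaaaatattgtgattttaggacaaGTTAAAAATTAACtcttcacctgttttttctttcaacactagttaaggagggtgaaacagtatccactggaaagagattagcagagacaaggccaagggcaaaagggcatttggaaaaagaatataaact
That motif is in 0.0335% of the 32817 promoters of the same length. Its shorter form GTTAAT, which overlaps the full motif, was in Ugt2a3 and Ugt3a1 and is in 6.44% of all promoters. The C/EBP motif TTGCNNAA was in Ugt2b5 and Ugt2b36, against 9.57% of all promoters. None of the 9 windows held TTCNNNGAA, the motif of the growth hormone effector STAT5 (7.01% of all promoters), TGACNNNGC, the antioxidant response element (10.2%), the nuclear receptor direct repeat (AGGTCA given again after any 1 base, 0.0335%) or the NFI motif (TTGGC and GCCAA with any 5 bases between them, 0.0366%). These letters were counted in these windows only.

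Total counts ranged from 15361901 to 26261394 per library, so that 3 counts, taken as the smallest detectable amount, corresponded to 0.114 to 0.195 CPM (counts per 1000000 counts of a library, TMM-scaled in all values of genes), which covers counting error only. Counts summed over 22 Mup genes were 272548 to 741314 in mWT and 70768 to 110248 in fWT mice, and 0 to 11 in the 12 KO mice. All 10 genes of a list of known sex-dependent liver genes passed the test in the labelled direction, 4 higher and 6 lower in males, in WT and in KO mice. Markers of hepatocytes summed to between 100598 and 158065 CPM, while those of kidney were at most 0.165 CPM, those of pancreas at most 0.879 CPM and those of adipocytes at most 2.69 CPM. The intestine list summed to 41 to 111 CPM, nearly all of it Fabp2 (40.8 to 111 CPM), a fatty acid binding protein, while its other 3 genes, Vil1, Muc2 and Alpi, were each under 1 CPM in every mouse. In a mixed tissue such as this, fewer cells of a type and less RNA per cell cannot be told apart.

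Some mice were at an end of their group for most of these genes. mWT mouse 1 had the lowest value of its group for 10 of 10 genes, while it was lowest for 20.8% of the 12330 genes tested. mKO mouse 1 had the highest value of its group for 9 of 10 genes, and was highest for 16.7% of the genes tested. In the same way, fWT mouse 2 was highest for 8, mWT mouse 4 highest for 7 and fKO mouse 5 lowest for 7 of the 10 genes. Over all genes tested the shares were 15%, 16.7% and 20.1%, in the same order. The sum over the 10 genes was 3946 CPM in mWT mouse 1, against 5062 to 6082 CPM in the other mWT mice, and 6606 CPM in mKO mouse 1, against 5140 to 5865 CPM in the other mKO mice. Their total counts were 16062969 and 24684788, and their hepatocyte markers summed to 134300 and 120797 CPM, the first of these the highest of the mWT group. Most of such a sum was Alb, at 71911 to 101726 CPM in mWT and 74620 to 99639 CPM in mKO mice. The part of these measures in the results was not tested. Values without mWT mouse 1 and mKO mouse 1 are given as a description, since the pair was chosen after its values were seen. Leaving out the lowest mWT and the highest mKO mouse of a gene can only lower the signed difference, KO minus WT, in males. A negative difference, such as that of Ugt2b37 or Ugt2b38, becomes larger in size by this.

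Per kilobase of exon, Ugt2b5 had the highest mean level in all 4 groups. It was at 665 ± 138 CPM per kb (SD, n = 6) in mWT, 734 ± 86.1 in mKO, 476 ± 52.2 in fWT and 552 ± 69.6 in fKO mice. Ugt2b36 came next in every group, with 461 ± 77.2 CPM per kb in mWT and 394 ± 44.4 in fWT mice, and its values overlapped those of Ugt2b5 in mWT, fWT and fKO mice. Ugt2b1 was in the third place in both male groups and in fKO mice, at 432 ± 79.9 CPM per kb in mWT mice, where it overlapped Ugt2b36 but no value of the gene below it. In fWT mice Ugt2b1 was lower in the order, after Ugt3a2, at 185 ± 23.6 CPM per kb, and overlapped both of its neighbours, Ugt3a2 at 190 ± 17.5 and Ugt2b34 at 153 ± 16. Ugt2a3, Ugt3a2 and Ugt2b34 held the middle of the order, between 152 and 213 CPM per kb on average in the 4 groups. Per kb of the longest transcript, Ugt3a2 was higher, at 219 to 266 CPM per kb, and came before Ugt2a3 in every group and before Ugt2b1 (216 CPM per kb) in fKO mice, overlapping the gene after it each time. Ugt2b35 followed at 82.4 ± 17.6 CPM per kb in mWT and 48.2 ± 4.86 in fWT mice, and Ugt3a1 at 24.8 ± 5.43 and 27.7 ± 3.07.

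The last places were held by Ugt2b37 and Ugt2b38, and they changed places with sex. Per kb of exon, Ugt2b38 was ninth in males, at 11.1 ± 8.37 CPM per kb in mWT and 6.49 ± 4.98 in mKO mice, with Ugt2b37 below it at 1.94 ± 1.52 and 1.22 ± 0.961. The values of Ugt2b38 and Ugt2b37 overlapped in both male groups, and those of Ugt3a1 and Ugt2b38 in mWT mice. In females Ugt2b37 was ninth, at 11.1 ± 4.59 CPM per kb in fWT and 9.57 ± 3.62 in fKO mice, and Ugt2b38 last at 1.05 ± 0.576 and 1.38 ± 0.565. These 2 genes also varied most between mice of a group. Their coefficients of variation in CPM were 75.3% to 79.1% in the male groups and 37.8% to 54.8% in the female groups, against 7.01% to 21.9% for the other 8 genes.

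**Figure D1:**
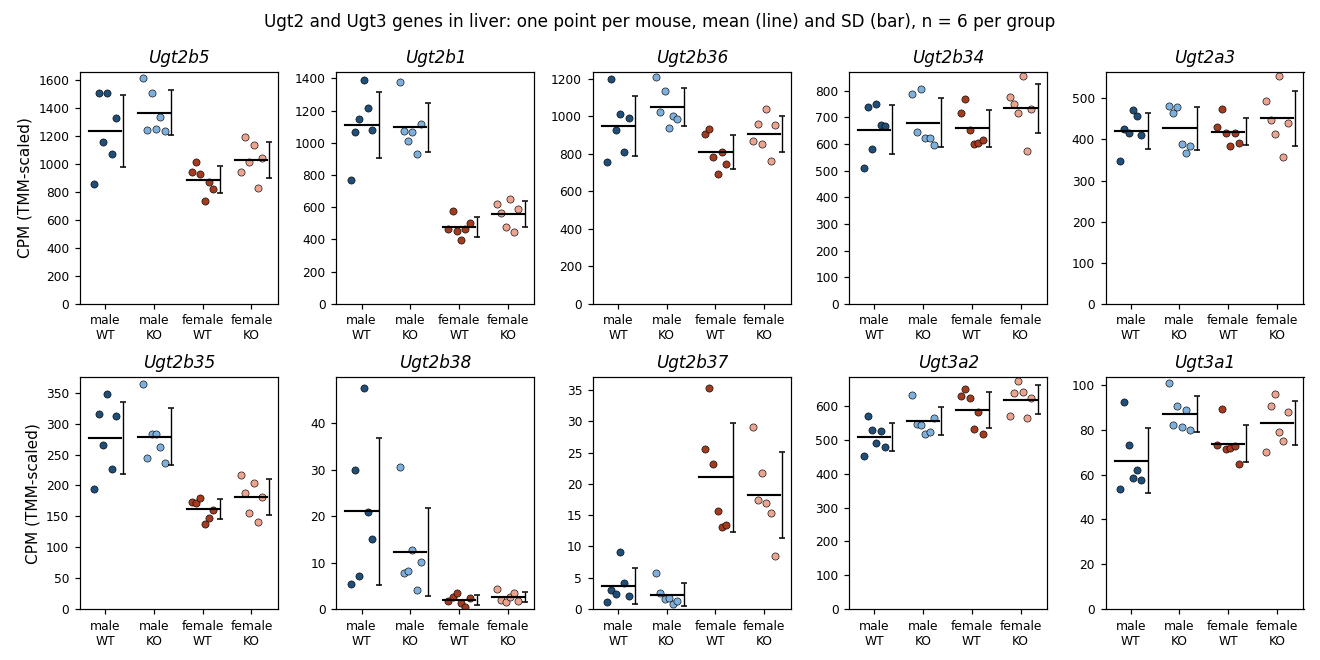
Each panel plots the TMM-scaled CPM of one gene on its own linear axis from 0, with one point per mouse, the group mean as a line and the SD as a bar (n = 6 per group). Ugt2b1, Ugt2b35 and Ugt2b38 were higher in all mWT than in all fWT mice, and Ugt2b37 was lower in all males than in all females of the same genotype.

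The comparison of mWT with fWT mice asks how the sexes differ in normal liver. Of the 10 genes, 4 were higher in males (Ugt2b1, Ugt2b5, Ugt2b35 and Ugt2b38) and 2 lower (Ugt2b37 and Ugt3a2) at an adjusted p under 0.05, where 8.51% of all genes tested were higher and 8.81% lower in males, 17.3% in either direction. Their median log2 fold change was 0.12, beside -0.002 over all genes tested. The values of the 2 sexes did not overlap for 3 genes higher in males (3.66% of all genes) and 1 lower (4.05%).

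Ugt2b1 is known from rat liver as an enzyme that conjugates steroids and drugs. Its level in mWT mice ran from 768 through a median of 1116 to 1391 CPM, and in fWT mice from 396 through 465 to 578 CPM. Every male was above every female. The difference was 2.34-fold (log2 fold change 1.22, SE 0.122, adjusted p = 3.91e-08). In KO mice the values were 930, 1070 and 1380 CPM in males and 443, 574 and 648 CPM in females, again without overlap, and the difference was 1.97-fold (log2 fold change 0.98, SE 0.122, adjusted p = 1.72e-06).

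Ugt2b35, the only Ugt2 gene on the plus strand, ran from 194 through 289 to 348 CPM in mWT and from 138 through 166 to 179 CPM in fWT mice. The lowest male was above the highest female. It was 1.71-fold higher in males (log2 fold change 0.77, SE 0.13, adjusted p = 0.000111). In KO mice it ran from 236 through 273 to 364 CPM in males and from 141 through 184 to 217 CPM in females, a 1.54-fold difference without overlap (log2 fold change 0.62, SE 0.129, adjusted p = 0.00127).

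Ugt2b5, the most abundant of the 10, ran from 856 through 1241 to 1503 CPM in mWT and from 737 through 900 to 1012 CPM in fWT mice. The groups overlapped through mWT mouse 1, the lowest male. The difference was 1.4-fold (log2 fold change 0.48, SE 0.118, adjusted p = 0.00531). In KO mice the males ran from 1237 through 1294 to 1612 CPM and the females from 830 through 1028 to 1188 CPM, without overlap, and the difference was 1.33-fold (log2 fold change 0.41, SE 0.118, adjusted p = 0.018). Without fKO mouse 5, the lowest female, the log2 fold change in KO mice was 0.36 and missed the threshold (adjusted p = 0.0532). Summed with Ugt2b38, with which it can share reads, Ugt2b5 gave 862 to 1550 CPM in mWT and 738 to 1015 CPM in fWT mice.

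Ugt2b38 had the largest male excess of the 10. It ran from 5.5 through 17.9 to 47.6 CPM in mWT and from 0.384 through 2.11 to 3.43 CPM in fWT mice, where the lowest value rested on 7 reads. All males were above all females, by 10.5-fold in the fit (log2 fold change 3.40, SE 0.567, adjusted p = 0.000208). In KO mice it ran from 4.11 through 9.14 to 30.6 CPM in males and from 1.6 through 2.34 to 4.31 CPM in females, which overlapped narrowly, and the difference was 4.73-fold (log2 fold change 2.24, SE 0.549, adjusted p = 0.00755). Its counts were 0.625% to 3.16% of those of Ugt2b5 in mWT and 0.044% to 0.37% in fWT mice. The 24.7% of stretches of Ugt2b5 that both transcripts hold is a share of sequence and not of reads. The part of shared reads in the sex difference of Ugt2b38 was not tested.

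Ugt2b37 went the other way. It ran from 1.12 through 2.7 to 9.18 CPM in mWT and from 13.1 through 19.4 to 35.3 CPM in fWT mice. Every female was above every male, by 5.61-fold (log2 fold change, male minus female, -2.49, SE 0.445, adjusted p = 0.000423). In KO mice it ran from 0.796 through 1.66 to 5.82 CPM in males and from 8.53 through 17.1 to 29.1 CPM in females, also without overlap, a 7.51-fold difference (log2 fold change -2.91, SE 0.461, adjusted p = 0.00012).

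The ratio of Ugt2b37 to Ugt2b38 counts separated the sexes in each mouse. It was 0.0996 to 0.333 in mWT and 0.129 to 0.326 in mKO mice, and 5.49 to 34.1 in fWT and 4.53 to 13.6 in fKO mice. Each of the 12 males thus held less Ugt2b37 than Ugt2b38 and each of the 12 females more. Ugt2b38 is one of the 2 genes whose counts are uncertain because of shared stretches.

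**Figure D2:**
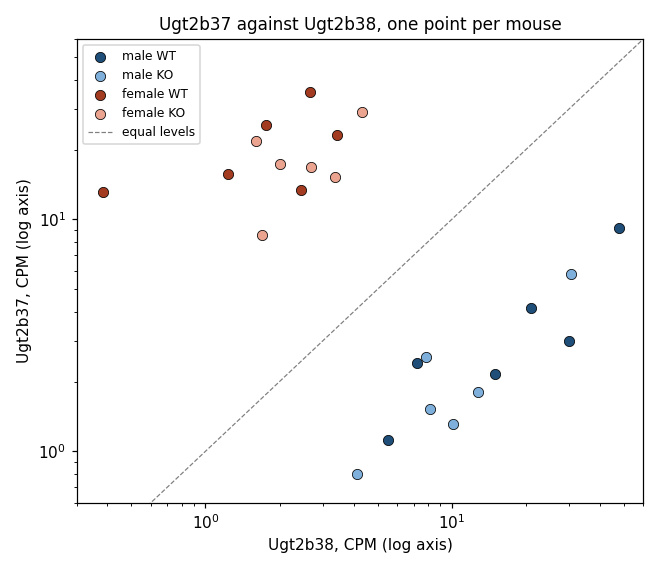
Each point is one mouse, with the CPM of Ugt2b38 on the horizontal and of Ugt2b37 on the vertical axis, both on log scales, and the dashed line marks equal levels. All 12 males lie below the line and all 12 females above it, in WT and in KO mice.

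Ugt3a2 was 1.16-fold lower in males. It ran from 454 through 509 to 571 CPM in mWT and from 517 through 603 to 650 CPM in fWT mice, with overlap (log2 fold change -0.21, SE 0.0735, adjusted p = 0.0468). This call stood at the threshold. It was lost when any one of 14 mice was left out, among them mWT mouse 1 (log2 fold change -0.18, adjusted p = 0.0978) and fWT mouse 2 (-0.18, adjusted p = 0.105), and without mWT mouse 1 and mKO mouse 1 together (-0.18, adjusted p = 0.0833). In KO mice Ugt3a2 did not pass (-0.16, SE 0.0735, adjusted p = 0.158).

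The other 4 genes did not pass in WT mice. Ugt2b36 was at 756, 961 and 1201 CPM in mWT and 693, 797 and 930 CPM in fWT mice (log2 fold change 0.23, SE 0.101, adjusted p = 0.122), and in KO mice its log2 fold change was 0.21 (SE 0.101, adjusted p = 0.169). Without mWT mouse 1, the lowest male, and mKO mouse 1, the WT difference of Ugt2b36 was 0.28 and passed (adjusted p = 0.0461). Ugt3a1 gave -0.16 (SE 0.109, adjusted p = 0.345) in WT mice and, without mWT mouse 2, the highest male, -0.28 with an adjusted p of 0.042. For Ugt2a3 the 95% intervals of the log2 fold change ran from -0.18 to 0.20, and for Ugt2b34 from -0.21 to 0.20, so differences larger than these were outside the intervals in WT mice.

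In KO mice, which share no animals with the WT mice, 4 of the 10 genes were higher in males and 1 lower, where 7.26% of all genes were higher and 7.13% lower (14.4% in either direction). Those 5 genes had also passed in the same direction in WT mice. Over all genes, 4.21% passed as higher in males in both genotypes and 4.34% as lower in both. The sexes did not overlap for 3 genes higher in males (3.84% of all genes) and 1 lower (3.41%). The median over the 10 genes was 0.14, beside -0.004 over all genes. Without mWT mouse 1 and mKO mouse 1 the log2 fold changes of Ugt2b38 were 3.60 in WT and 1.72 in KO mice (adjusted p = 1.5e-05 and 0.0149), and those of Ugt2b37 were -2.30 and -3.46 (adjusted p = 0.00033 and 1.43e-05).

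**Figure D3:**
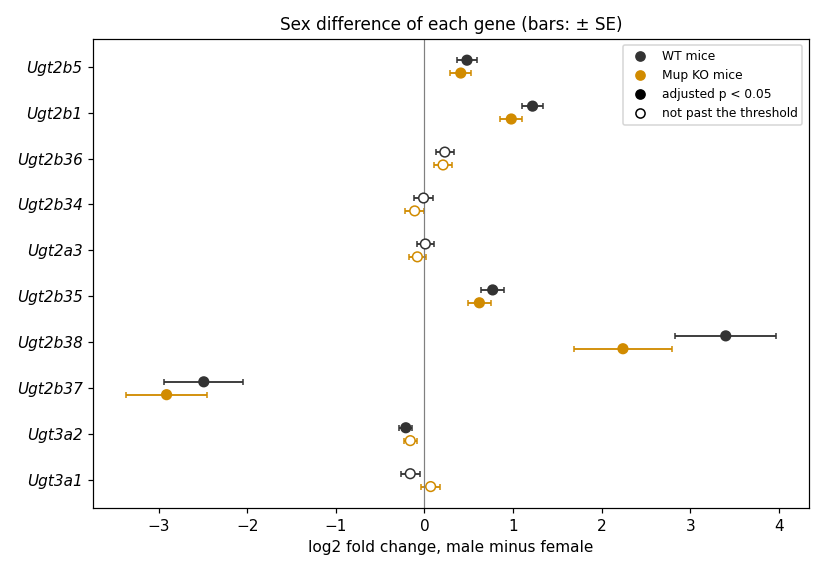
Points give the log2 fold change, male minus female, of each gene in WT (black) and KO (orange) mice, bars its SE, and filled points an adjusted p under 0.05. Ugt2b38 lies farthest to the male side and Ugt2b37 farthest to the female side in both genotypes.

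Markers of other cell types also differed between the sexes. The 5 erythroid markers summed to 142 to 233 CPM in males and 34.2 to 55.5 CPM in females, and all 5 were above 0 in at least one mouse of each group. Of the 6 Kupffer cell and macrophage markers, 3 were lower in mWT than in fWT mice, with sums of 67.9 to 135 against 121 to 225 CPM. Among endothelial markers 3 of 6 were lower in mWT mice (sums of 125 to 155 against 141 to 190 CPM), as was 1 of 6 stellate cell markers (158 to 286 against 234 to 306 CPM). Over all genes tested, 8.81% were lower in mWT mice. In KO mice 0 Kupffer cell, 1 endothelial and 2 stellate cell markers were lower in males, where 7.13% of all genes were. The hepatocyte list had 1 of 8 genes lower in mWT mice and none higher, and in KO mice 1 lower and 1 higher in males. The part of these cell types in the sex differences was not tested.

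Summed over the 10 genes, the level was 5249 ± 767 CPM in mWT, 5552 ± 583 in mKO, 4097 ± 402 in fWT and 4576 ± 471 in fKO mice. The range of mWT mice, 3946 to 6082 CPM, overlapped that of fWT mice, 3570 to 4714 CPM, through mWT mouse 1. The makeup of the sum differed by sex mainly in Ugt2b1, which made up 18% to 24% of it in mWT and 10.7% to 13.1% in fWT mice. Conversely, Ugt2b34 took 11.4% to 13.3% of the sum in mWT and 15.2% to 16.8% in fWT mice, and Ugt3a2 8.06% to 11.5% and 13.5% to 15.1%. A share also depends on the sum. The level of Ugt2b34 itself hardly differed between mWT and fWT mice (log2 fold change -0.01, adjusted p = 0.966). Ugt2b5 had similar shares, 21.1% to 25.3% and 20.7% to 22.5%. Ugt2b37 and Ugt2b38 each stayed under 1% in every mouse, with highest shares of 0.75% and 0.782%.

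**Figure D4:**
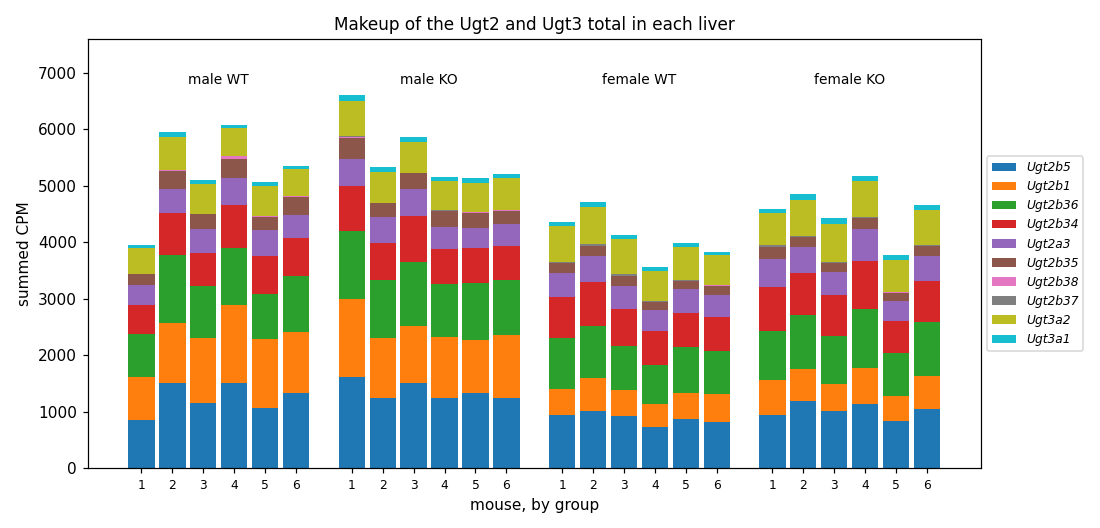
Each bar is one mouse, its height the summed CPM of the 10 genes and its coloured segments the genes. The bars run from 3570 to 6606 CPM, and the Ugt2b1 segment is the one that differs most between males and females.

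The comparison of KO with WT mice asks what the loss of the Mup genes does. No gene of the 10 changed with the KO at an adjusted p under 0.05 in the edgeR fit, in males, in females or averaged over the sexes, where 0.211%, 0.0892% and 0.17% of all genes passed. At an unadjusted p under 0.01, 1 gene passed in males, Ugt3a1, where 3.52% of all genes did, and none in females, where 0.876% did. At p under 0.05 the counts were 1 in males (10.6% of all genes) and 0 in females (4.87%). Averaged over the sexes, 1 gene passed at p under 0.01 (2.83% of all genes) and 3 at p under 0.05 (9.57%), namely Ugt3a1, Ugt2b5 and Ugt2b36. DESeq2 called 1 of the 10 in males (Ugt3a1) and none in females at an adjusted p under 0.05.

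Ugt3a1 was at 53.7, 60.1 and 92.4 CPM (lowest, median and highest) in mWT and at 79.8, 85.4 and 101 CPM in mKO mice. Of the mWT mice only mouse 2, at 92.4 CPM, lay within the range of the mKO mice. The difference was 1.32-fold (log2 fold change 0.40, SE 0.109, adjusted p = 0.142). With single mice left out it ran from 0.34 without mWT mouse 1, the lowest WT male (adjusted p = 0.178), to 0.52 without mWT mouse 2, the highest, and passed in the latter case only (adjusted p = 0.00593). Without mWT mouse 1 and mKO mouse 1, the lowest WT and the highest KO male, it was 0.30 (adjusted p = 0.302) and no longer passed at an unadjusted p under 0.01. DESeq2 gave 0.40 with an adjusted p of 0.0384. In females the values were 64.8, 72.2 and 89.4 CPM in fWT and 70.2, 83.5 and 95.8 CPM in fKO mice, which overlapped (log2 fold change 0.17, SE 0.108, adjusted p = 0.929). Averaged over the sexes the log2 fold change was 0.28 (SE 0.0766, adjusted p = 0.208), with DESeq2 0.29 (adjusted p = 0.0479) and without mWT mouse 2 0.34 (adjusted p = 0.00877).

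Its neighbour and close copy Ugt3a2 ran from 454 through 509 to 571 CPM in mWT and from 519 through 546 to 633 CPM in mKO mice (log2 fold change 0.13, SE 0.0735, adjusted p = 0.576, and 0.05 without mWT mouse 1 and mKO mouse 1). The ratio of Ugt3a2 to Ugt3a1 counts was 6.18 to 8.51 in mWT, 5.9 to 7.09 in mKO, 7.27 to 8.74 in fWT and 7.05 to 8.14 in fKO mice. The male groups overlapped in this ratio.

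Among the Ugt2 genes the KO differences were small or imprecise. In males, the log2 fold changes of the 6 abundant Ugt2 genes were -0.02 (Ugt2b1), 0.01 (Ugt2b35), 0.02 (Ugt2a3), 0.05 (Ugt2b34), 0.14 (Ugt2b5) and 0.14 (Ugt2b36), with adjusted p from 0.672 to 0.988. Without mWT mouse 1 and mKO mouse 1 they were -0.19, -0.17, -0.07, -0.06, 0.00 and 0.04 in the same order, and none passed. For Ugt2b1, the 95% interval ran from -0.26 to 0.21 in males. The same 6 genes had log2 fold changes of 0.11 to 0.22 in females, with adjusted p from 0.929 to 0.944, and the largest of them was Ugt2b1 with an interval from -0.01 to 0.46.

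The 2 low genes had wider errors. Ugt2b38 was at 5.5, 17.9 and 47.6 CPM in mWT and at 4.11, 9.14 and 30.6 CPM in mKO mice (log2 fold change -0.77, SE 0.486, adjusted p = 0.628). With single mice left out the value ran from -1.29 without mKO mouse 1, the highest KO male (adjusted p = 0.351), to -0.34 without mWT mouse 4, the highest WT male (adjusted p = 0.879), and without mWT mouse 1 and mKO mouse 1 together it was -1.49 (adjusted p = 0.176). Ugt2b37 gave -0.64 in males (SE 0.495, adjusted p = 0.722). The same mice gave its extremes, -1.19 without mKO mouse 1 (adjusted p = 0.419) and -0.09 without mWT mouse 4 (adjusted p = 0.976), with -1.37 (adjusted p = 0.263) without mWT mouse 1 and mKO mouse 1. In females, Ugt2b38 gave 0.39 (SE 0.612, adjusted p = 0.965) and Ugt2b37 -0.21 (SE 0.394, adjusted p = 0.967). All of these groups overlapped.

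Values above 0 were seen for 7 of the 10 genes in males and 9 of 10 in females, against 49.4% and 49.1% of all genes. Their median log2 fold changes were 0.04 and 0.16, beside -0.002 and -0.003 over all genes. The 10 genes were measured in the same mice, so they are not 10 separate observations.

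The interaction of genotype and sex tests whether the KO effect differed between males and females. None of the 10 genes passed it in edgeR, at an adjusted p under 0.05 (0.00811% of all genes) or at an unadjusted p under 0.01 (1.16%) or 0.05 (5.96%), and none did so with DESeq2 at an adjusted p under 0.05. The estimate farthest from 0 was that of Ugt2b38, -1.16 (SE 0.781, interval -2.69 to 0.38, adjusted p = 0.887). For Ugt3a1 it was 0.23 (SE 0.153, interval -0.07 to 0.53, adjusted p = 0.887), and for Ugt2b1 -0.25 (SE 0.17, interval -0.58 to 0.09, adjusted p = 0.892).

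**Figure D5:**
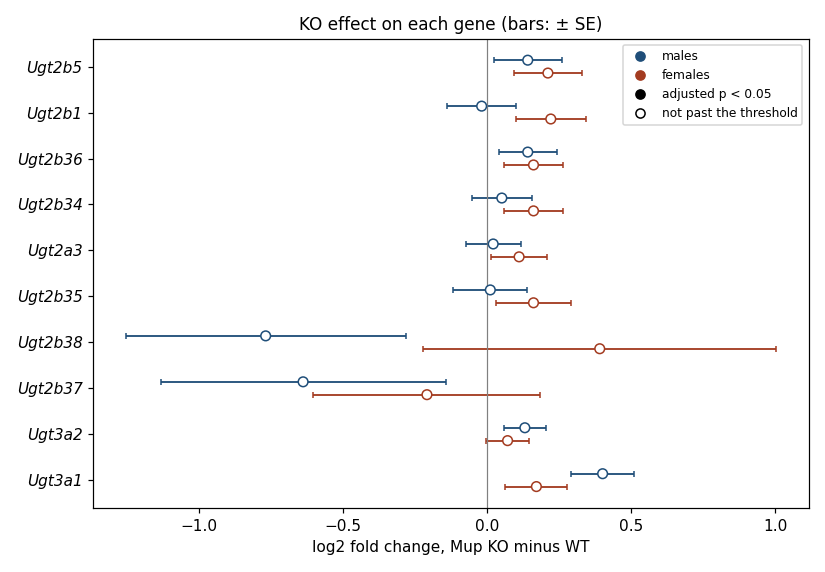
Points give the log2 fold change, KO minus WT, of each gene in males (blue) and females (red), bars its SE, and open points an adjusted p of 0.05 or more. All points are open, with Ugt3a1 at 0.40 in males and the widest bars at Ugt2b37 and Ugt2b38.

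The remaining genes of the pathway were taken from fixed lists. The Ugt1a genes, which encode enzymes for bilirubin, phenols and drugs, share their last exons at one locus. The counts of Ugt1a10 and Ugt1a8 were 0.999 to 1 times those of Ugt1a2 in each library, and those of the other 6 were 1.02 to 1.36 times as high, so the 9 entries carry nearly the same reads and are not separate observations. All 9 were lower in males in WT mice (median log2 fold change -0.49) and in KO mice (-0.36), the direction opposite to that of Ugt2b1, Ugt2b5, Ugt2b35 and Ugt2b38. Ugt1a1, the bilirubin-conjugating form, was at 1005 ± 78.6 CPM in mWT and 1448 ± 97 CPM in fWT mice (log2 fold change -0.53, SE 0.0736, adjusted p = 8.68e-06). None of the 9 passed in a KO comparison. Ugt2a1, Ugt2a2 and Ugt8a did not pass the filter on low counts.

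Of 8 genes listed for the supply of UDP-glucuronate, 5 were higher in mWT than in fWT mice and none lower (median log2 fold change 0.33). Over all genes tested, 8.51% were higher and 8.81% lower in mWT mice. Ugdh, which oxidizes UDP-glucose to UDP-glucuronate, was at 175 to 264 CPM in mWT and 106 to 161 CPM in fWT mice, without overlap (log2 fold change 0.83, SE 0.115, adjusted p = 6.76e-06), and in KO mice the value was 0.72 (SE 0.114, adjusted p = 5.25e-05). Slc35d2, a carrier of nucleotide sugars, gave 0.37 (adjusted p = 0.0156), Entpd5, a nucleotidase of the endoplasmic reticulum, 0.35 (adjusted p = 0.013), and Slc35d1, the carrier of UDP-glucuronate, 0.33 (adjusted p = 0.0108). In KO mice 3 of the 8 were higher in males and none lower, where 7.26% of all genes were higher and 7.13% lower.

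Export pumps of glucuronides went both ways. Abcg2, a pump of the bile canaliculus, was at 79.2 to 137 CPM in mWT and 31.1 to 42.7 CPM in fWT mice (log2 fold change 1.61, SE 0.0974, adjusted p = 1.68e-12), and in KO mice its log2 fold change was 1.51 (SE 0.0969, adjusted p = 7.49e-12). Abcc2, the main canalicular exporter of bilirubin glucuronides, was also higher in mWT mice, by 0.35 (adjusted p = 0.00388). The pumps of the blood side were lower in mWT mice, Abcc4 by a log2 fold change of -0.72 (adjusted p = 0.00401) and Abcc3 by -0.31 (adjusted p = 0.0429). In KO mice, Abcg2 and Abcc4 passed, and Abcc2 and Abcc3 did not.

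Among 6 tested genes that use or release glucuronate, Gusb, the lysosomal beta-glucuronidase, was higher in mWT mice (log2 fold change 0.36, adjusted p = 0.00569), as was Akr1a1, a reductase of glucuronate (0.25, adjusted p = 0.00699), and Rgn, the gluconolactonase, was lower (-0.40, adjusted p = 0.00202). In KO mice Akr1a1 (0.37, adjusted p = 0.000194) and Rgn (-0.33, adjusted p = 0.0117) passed in the same directions. Gusb did not pass there (0.16, adjusted p = 0.258). Of 13 factors known to act on UGT genes, Foxa3 was higher in males (0.61 in WT, adjusted p = 0.0124, and 0.52 in KO mice, adjusted p = 0.0355). Nr1i3, the constitutive androstane receptor, was lower (-0.84 in WT, adjusted p = 0.0144, and -0.93 in KO mice, adjusted p = 0.00824), while 11 did not pass in WT mice. Over all genes tested, 8.51% were higher and 8.81% lower in males in WT mice, and 7.26% and 7.13% in KO mice. No gene of these lists passed a KO comparison in edgeR at an adjusted p under 0.05 or an unadjusted p under 0.01.

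Within 500 kb of the 10 genes the annotation and the count tables hold 26 other genes, of which 8 were tested. Beside the Ugt3 genes on chromosome 15, Ranbp3l was lower in males in WT (log2 fold change -1.43, SE 0.326, adjusted p = 0.0029) and in KO mice (-1.08, SE 0.32, adjusted p = 0.0228), and Lmbrd2 (0.47, SE 0.0858, adjusted p = 0.000272) and Skp2 (0.54, SE 0.18, adjusted p = 0.0399) were higher in males in WT mice. Beside the Ugt2 genes on chromosome 5, Sult1d1, a sulfotransferase, was lower in males in KO mice (-0.74, SE 0.179, adjusted p = 0.00583). None of the 8 passed a KO comparison at an adjusted p under 0.05, and at an unadjusted p under 0.01 Lmbrd2 was higher in fKO mice (0.25, SE 0.0857, adjusted p = 0.929).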

How the data were processed

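Liver RNA of 24 mice was sequenced by the authors from stranded mRNA libraries in one multiplexed run of 100 bp single-end reads. Per the labels and the submitters' processing notes, reads were demultiplexed with bcl2fastq 2.19, trimmed with fastp 0.20, aligned to GRCm38.p6 with STAR 2.7a and counted per gene with featureCounts of Rsubread, and the authors' own tests used edgeR 3.28.1. The deposited values are raw counts per Ensembl gene, one table per mouse. The annotation release, the strand setting and the treatment of reads that match several places are not given in the sources used here. Of 25746 genes listed, 25635 were matched to GENCODE M21 (GRCm38).

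All tests ran in edgeR 4.0.16 (R 4.3.3). A gene entered if it reached 0.66 CPM or more in 6 or more of the 24 libraries, which left 12330. After TMM scaling, one quasi-likelihood fit (robust dispersions, one mean for each group) covered the 24 libraries. It gave the KO effect in males, in females, their average and their difference, and the difference of males from females in WT and in KO mice. Genes were called at a Benjamini-Hochberg adjusted p under 0.05 over all genes tested, with the study's cut-off of an unadjusted p under 0.01 beside it. CPM are TMM-scaled. The fitted fold changes weigh mice differently from ratios of mean CPM. Replicates of a group differed by more than sampling noise (lowest chi-square per gene 8.19). The procedure was tested on simulated counts. Alternatives were DESeq2 1.42.0, other scalings, filters and dispersions, removal of the Mup genes, a block for the replicate number, separate fits and each mouse left out. A pair of alternatives was added after seeing the data (the deviances of edgeR 4, and mWT mouse 1 and mKO mouse 1 left out together).

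All 10 genes were described. Other genes were named by a fixed rule, at most 4 per pathway list, those past the threshold with the largest change, and neighbours within 500 kb that passed. The genes and lists were chosen with earlier results of these data known. Promoters came from RefSeq (9 of 10 genes matched). Sequences were compared with Biopython 1.88, and coding nucleotide identity took the place of the planned protein identity. Figures used matplotlib 3.10.9.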

Additional observations from a re-analysis of the deposited data

Results flagged for a closer look

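The values of each of the 10 genes and their sum were tested for a mouse standing far from the rest of its group of 6. For separate, normally distributed values chance gives about 1 in 20. The genes and their sum were measured in the same mice, so that rate is no yardstick here. A mouse stood far from the rest in 4 of 44 groups. In 3 of these it was mKO mouse 1, with 364 CPM of Ugt2b35, 5.82 CPM of Ugt2b37 and 30.6 CPM of Ugt2b38, each the highest of the mKO mice. The gap to the next mouse was 0.632, 0.649 and 0.674 of the range of the group, above the critical value of 0.625. The remaining one was fWT mouse 2, with 89.4 CPM of Ugt3a1, where the gap was 0.663 of the range.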

How the results depend on the processing

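The sex differences of Ugt2b1, Ugt2b35, Ugt2b37 and Ugt2b38 kept their direction and passed in WT and in KO mice under every alternative run. Ugt3a2 lost its call in WT mice with DESeq2 size factors, without the filter, under the replicate block and in a fit of WT mice alone, and Ugt2b5 lost its call in KO mice without fKO mouse 5. For the named genes, leaving out single mice gave 1393 values with the same direction and call, 3 that gained and 15 that lost the call and 29 that changed sign, and the other alternatives gave 566, 3, 5 and 6. All values that changed sign belonged to genes that passed in neither setting. The cause of these changes was not tested.

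At an adjusted p under 0.05, DESeq2 called 1 of the 10 genes (Ugt3a1) in males and 1 averaged over the sexes, against 0 in edgeR. Over all genes tested, the calls in males, in females, averaged and in the interaction were 26, 11, 21 and 1 in edgeR and 142, 18, 48 and 10 with DESeq2. Without the Mup genes they were 2 in males, 0 in females and 1 averaged, where 17 of the 26, 11 of the 11 and 17 of the 21 calls had been Mup genes, and in a fit of males alone 48.

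With mice left out, singly or mWT mouse 1 and mKO mouse 1 together, 0 to 1 of the 10 genes passed in males at an adjusted p under 0.05 and 1 to 2 at p under 0.01, and averaged over the sexes 0 to 1 and 1 to 2. In the interaction 0 to 1 passed at p under 0.01, Ugt2b38 without the pair. Calls over all genes ranged from 19 (without mKO mouse 5) to 60 (without mWT mouse 1) in males, with 43 without mWT mouse 2, and from 1 to 2 in the interaction. The log2 fold changes in males ranged from -0.07 to 0.06 for Ugt2a3, from -0.19 to 0.05 for Ugt2b1, from -0.06 to 0.10 for Ugt2b34 and from -0.17 to 0.09 for Ugt2b35. Averaged over the sexes they ranged from 0.00 to 0.12 for Ugt2b35 and from -0.55 to 0.02 for Ugt2b38. The interaction ranged from -0.12 to 0.06 for Ugt2b36, from -1.16 to 0.12 for Ugt2b37 and from -0.02 to 0.09 for Ugt3a2, and the sex difference in WT mice from -0.03 to 0.06 for Ugt2a3 and from -0.06 to 0.05 for Ugt2b34.

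Deviations of mice with the same number in different groups correlated at -0.363 to 0.287, over 0.1 for 10 of 36 pairs, and in no pair of groups for all 6 numbers, so the numbers were not taken to pair the mice. The closest were mKO and fWT mice, with 4 of 6 numbers over 0.1 and 3 mice best matched by their own number. With the replicate number as a block, calls over all genes were 24 in males, 11 in females, 23 averaged, 1 in the interaction, 2062 for sex in WT and 1664 for sex in KO mice, and 5 of the 10 genes passed for sex in WT mice. With stretches of 50 instead of 100 bases, the share found in another gene was 41.7% for Ugt2b5, 37.4% for Ugt2b38, 18.3% for Ugt2b37, 7.6% for Ugt3a1, 7.01% for Ugt3a2, 4.55% for Ugt2a3, 1.44% for Ugt2b34, 0.303% for Ugt2b35 and 0.285% for Ugt2b36. Depth limits Ugt2b37 and Ugt2b38 most, with 12 to 182 and 62 to 943 reads per male and 146 to 692 and 7 to 86 per female.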
